A study of Mus musculus with 6 samples.

Results

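The sirtuin family and 3 NAD metabolism genes were examined in cultured mouse muscle-derived stem/progenitor cells (MDSPCs). The 10 genes were listed by name: the sirtuins Sirt1 to Sirt7, the NAD-making enzymes Nampt and Nmnat1, and the NAD-consuming enzyme Cd38. All 10 were found by Ensembl identifier among the 21485 genes that the 6 deposited matrices have in common. MDSPCs are slowly adhering cells enriched from digested skeletal muscle by passing the cells that have not yet attached to new collagen-coated flasks. Each age group, young and old, had 3 populations, all grown in the same serum-rich proliferation medium, and each gave 1 library of droplet-based 3′ single-cell RNA sequencing. The labels call the 3 populations of a group biological replicates but give no ages, sex, strain or genotype, and do not say whether each came from 1 animal. The p-values for old against young therefore measure only the spread between these populations. Those for cell classes within populations measure how far the class differences vary over these populations.

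Sirtuins are enzymes that remove acetyl and other acyl groups from proteins and use up NAD in doing so. Mouse cells have sirtuins of the nucleus (Sirt1, Sirt6 and Sirt7), of the cytoplasm (Sirt2) and of the mitochondria (Sirt3, Sirt4 and Sirt5). NAD is mainly rebuilt from nicotinamide, the product the sirtuins release: Nampt carries out the rate-limiting step and the Nmnat enzymes, with Nmnat1 in the nucleus, finish the molecule. Cd38 is a membrane enzyme that breaks NAD down and is best known from immune cells. In muscle stem cells, NAD supply and Sirt1 are known for their links with quiescence, metabolism and aging.

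The 6 libraries held 62849 cell barcodes, of which 61673 were kept. Kept cells had a median of 13001 to 19951 unique molecular identifiers (UMIs, which tag single captured RNA molecules) per library. Any pair of libraries shared 24 to 41 barcodes, at most 0.375% of the smaller library. Libraries were set side by side by summing the UMIs of each gene over all cells of a library, scaled to a common total and corrected with TMM factors (CPM). In such sums fewer expressing cells and less RNA per cell cannot be told apart. Summed CPM of 9 myogenic markers ran from 276 to 3703, with old replicate 3, young replicate 2 and old replicate 2 highest and the other 3 libraries at 442 or lower. The 7 fibro-adipogenic markers summed to 203 to 455 CPM and the 6 immune markers to 1.45 to 9.15. The 5 endothelial markers summed to at most 1.56 except in young replicate 2, at 59.6. The 4 smooth muscle and pericyte markers summed to 16.1 to 22.2 in the young and 1.08 to 9.42 in the old libraries. The part of these differences in the results below was not tested.

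The 10 genes lie on 7 chromosomes of the GRCm38 build (mm10) and are all annotated as protein coding. Sirt1 is at chr10:63319005-63381704 on the minus strand and Sirt6 on the same chromosome at chr10:81621785-81627797, also minus. Sirt2 is at chr7:28766735-28788661 on the plus strand and Sirt3 at chr7:140863666-140882309 on the minus strand. Sirt4, at chr5:115478010-115484725 on the minus strand, shares its chromosome with Cd38, at chr5:43868553-43912375 on the plus strand. Sirt5 is at chr13:43365496-43395203 on the plus strand, Sirt7 at chr11:120618372-120625240 on the minus strand, Nampt at chr12:32819545-32853349 on the plus strand and Nmnat1 at chr4:149467572-149485202 on the minus strand. Neighbours among the shared genes overlap 4 of them: Sirt2 shares 778 bp with Nfkbib, Sirt3 707 bp with Ric8a and 342 bp with Psmd13, Nmnat1 6172 bp with Tmem274, all on the opposite strand, and Sirt7 124 bp with Mafg on the same strand. Genes outside the shared list also overlap Nampt (Gdap10, 5033 bp, same strand), Cd38 (Gm16014, 1275 bp, same strand) and Sirt1 (Gm16145, 13035 bp, opposite strand). Whether the longer gene list counts them was not checked. The sources used here do not say how reads in shared bases or on the opposite strand were counted. The values of the first 4 genes, and of Nampt, Cd38 and Sirt1, are therefore less certain.

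The 250 bases before the RefSeq start site are shown for 3 members that the comparison of cycling with non-cycling cells, given further below, turns on: Sirt1 and Nampt, which were higher in cycling cells, and Sirt2, which was lower. The letters are RefSeq's for GRCm38.p6, on the gene's own strand and ending at the base before the start site. Capitals mark the letters CACGTG (an E-box), TTTNNCGC (an E2F-type element) and CCAAT, each searched on both strands. The windows are chr10:63339036-63339285 (minus strand) for Sirt1, chr12:32820085-32820334 (plus strand) for Nampt and chr7:28766502-28766751 (plus strand) for Sirt2. The gene spans given above come from another annotation, GENCODE. The Sirt1 and Nampt windows lie inside those spans, and the last bases of the Sirt2 window do.
Sirt1: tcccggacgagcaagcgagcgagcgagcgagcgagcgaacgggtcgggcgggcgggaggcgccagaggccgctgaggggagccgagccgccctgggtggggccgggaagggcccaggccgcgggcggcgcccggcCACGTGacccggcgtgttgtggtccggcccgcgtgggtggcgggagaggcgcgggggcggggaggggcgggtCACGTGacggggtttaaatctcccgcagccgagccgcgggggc
Nampt: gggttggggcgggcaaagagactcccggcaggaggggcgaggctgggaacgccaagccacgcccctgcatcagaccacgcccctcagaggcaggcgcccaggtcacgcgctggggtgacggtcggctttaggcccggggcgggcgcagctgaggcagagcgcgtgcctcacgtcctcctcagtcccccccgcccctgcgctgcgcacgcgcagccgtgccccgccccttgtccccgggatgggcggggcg
Sirt2: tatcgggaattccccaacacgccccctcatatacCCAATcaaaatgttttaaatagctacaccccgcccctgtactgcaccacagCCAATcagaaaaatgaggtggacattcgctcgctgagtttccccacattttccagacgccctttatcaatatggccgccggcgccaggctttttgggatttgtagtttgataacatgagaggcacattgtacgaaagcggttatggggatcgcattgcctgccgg
The Sirt1 window is rich in G and C (79.2%), has 39 CpG dinucleotides and holds CACGTG at 2 places, whose first letters lie 115 and 43 bases before the start. The Nampt window is similar in base composition (75.6% G and C, 27 CpG) but holds none of the marked motifs. The Sirt2 window is only 50% G and C with 13 CpG, and holds CCAAT at 2 places, 216 and 165 bases before the start. Of 32851 windows of this length in the RefSeq table, 6.02% hold CACGTG, 4.28% TTTNNCGC, 16.0% TTTGAA (the cell cycle homology region) and 33.8% CCAAT. Among the 13 windows of the 10 members, CACGTG was found for Sirt1, TTTNNCGC for Sirt3 and Sirt4, TTTGAA for Sirt7, and CCAAT for Nmnat1, Sirt2, Sirt3 and Sirt5. A match describes the letters only and is not evidence of a bound factor.

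The first comparison asked how strongly each gene was expressed and whether old and young populations differed. Because the assay tags each molecule once at its 3′ end, CPM was not divided by gene length, and levels of different genes still depend on how well each 3′ end is captured. By mean level over the 6 libraries, Sirt2 (33.1 CPM) and Nampt (29.2 CPM) led, followed by Sirt1 (16.4 CPM), Sirt3 (15.3 CPM), Sirt7 (13.8 CPM) and Sirt5 (10.1 CPM). Sirt4 (6.43 CPM), Nmnat1 (5.95 CPM) and Sirt6 (3.69 CPM) were lower, and Cd38 (0.361 CPM) was the lowest. Each pair of neighbours in this order overlapped in range over the libraries except Sirt6 and Cd38. Among all shared genes, mean levels put Sirt2 at the 81.2th percentile and Cd38 at the 40.5th.

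No member was called as different between old and young, and the 3 values of each group overlapped with those of the other group for all 10 genes. The edgeR quasi-likelihood test, with a term for the 2 gene lists used in counting, called 0 of the 10 at an adjusted p under 0.05. Over all genes the test called 1 of 14512 (0.00689%), Cyba, which is no member and is named only because it was the single call. DESeq2 called 263 genes (1.69%), again 0 of the members. At an unadjusted p under 0.05 edgeR counted 0 members against 3.53% of genes, and 6.05% of genes had groups without overlap against 0 members. The members' median log2 fold change (old over young) was -0.03, with 4 above and 6 below 0, and the median of all genes tested was -0.01. The sign of the fold change turned for Sirt2, Sirt3, Sirt4, Sirt7, Nmnat1 and Cd38 when single libraries were left out.

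Nampt had the lowest unadjusted p of the members. Its level was 41.1, 24.4 and 36.7 CPM in young replicates 1 to 3, and 30.4, 26.5 and 16.1 CPM in old replicates 1 to 3. Old replicate 3 was the lowest library, and the other 2 old libraries lay inside the young range. In each group replicate 1, counted on the shorter gene list, was highest. The means were 34.1 ± 8.67 CPM (SD, n = 3) in young and 24.3 ± 7.35 CPM (SD, n = 3) in old populations, a log2 fold change of -0.49 (SE 0.29, edgeR adjusted p = 0.9999). Nampt kept this sign in all 16 alternative analyses, with fold changes between -0.71 and -0.30 on the log2 scale, and was called in none of those with a test. These alternatives are not independent, as the fits without young replicate 1 or old replicate 1 nearly repeat the fit on the longer gene list only. Nmnat1, the enzyme of the next step, had 5.49, 8.23 and 4.26 CPM in young and 7.24, 5.53 and 4.95 CPM in old replicates 1 to 3 (log2 fold change -0.04, SE 0.38).

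Sirt5, a mitochondrial enzyme that removes succinyl, malonyl and glutaryl groups, had the highest fold change of the members, and its size depended on single libraries. Young replicates 1 to 3 had 10.1, 7.18 and 3.03 CPM and old replicates 1 to 3 had 6.38, 24.0 and 10.1 CPM. Old replicate 2 stood above all others, at 7.93 times the lowest library, and the remaining 2 old libraries fell within or at the top of the young range. The log2 fold change was 0.98 (SE 0.72, edgeR adjusted p = 0.9999). It was 0.31 without old replicate 2, 0.39 without young replicate 3 and 1.74 without young replicate 1 or old replicate 1, the libraries on the shorter gene list, and was called in none of these fits.

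The other mitochondrial sirtuins varied over the libraries without an age direction. Sirt3, the main deacetylase of mitochondria, had 11.6, 20.5 and 14.0 CPM in young and 8.38, 19.6 and 17.5 CPM in old replicates 1 to 3 (log2 fold change -0.09, SE 0.27). Sirt4, which acts on mitochondrial amino acid and fatty acid metabolism, had 5.17, 7.87 and 4.03 CPM in young and 4.05, 9.72 and 7.78 CPM in old replicates 1 to 3 (log2 fold change 0.26, SE 0.41, turning to -0.07 without young replicate 3). Both genes were high in young replicate 2 and in old replicates 2 and 3, the 3 libraries with the most myogenic marker RNA. Sirt3 was lowest in the 2 libraries counted on the shorter gene list, young replicate 1 and old replicate 1. The part of marker RNA or gene list in these levels was not tested.

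Of the nuclear sirtuins, Sirt1 had 15.4, 18.5 and 19.5 CPM in young and 16.9, 11.7 and 16.2 CPM in old replicates 1 to 3. Only old replicate 2 lay below the young range. The means of 17.8 ± 2.12 and 14.9 ± 2.87 CPM (SD, n = 3 each) gave a log2 fold change of -0.25 (SE 0.25, edgeR adjusted p = 0.9999), which ranged from -0.45 to -0.07 when single libraries were left out. Sirt7, a deacetylase associated with the nucleolus, had 17.2, 10.2 and 11.1 CPM in young and 15.4, 18.8 and 10.2 CPM in old replicates 1 to 3 (log2 fold change 0.24, SE 0.32, turning to -0.11 without old replicate 2). Sirt6, a chromatin enzyme with roles in DNA repair and glycolysis, had 5.07, 2.99 and 3.20 CPM in young and 5.52, 2.69 and 2.69 CPM in old replicates 1 to 3 (log2 fold change -0.10, SE 0.35). For Sirt6 the highest library of each group was replicate 1, the one counted on the shorter gene list.

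Sirt2, a mainly cytoplasmic deacetylase of tubulin and other proteins, had its highest level in 1 young library. Young replicate 1 reached 57.5 CPM, while young replicates 2 and 3 had 21.3 and 25.7 CPM, and old replicates 1 to 3 had 37.5, 30.8 and 25.8 CPM. All old values therefore fell between the young extremes, and the log2 fold change was -0.02 (SE 0.27). Replicate 1 of each group, counted on the shorter gene list, lay above all libraries on the longer list. The part of the gene list in the Sirt2 levels was not tested. Cd38 was scarce everywhere, with 28, 15 and 109 UMIs in young and 51, 152 and 32 UMIs in old replicates 1 to 3, or 0.247, 0.0778 and 0.533 against 0.304, 0.819 and 0.186 CPM. Its levels spanned 10.5-fold over the libraries with no separation of the groups (log2 fold change 0.58, SE 0.96). That value turned to -0.28 without old replicate 2 and reached 1.59 without young replicate 3. In simulated counts with the same library sizes and a dispersion fixed at 0.05, this test recovered 62% of genes changed by 2-fold and 100% of genes changed by 4-fold. The changed genes were all above a minimum level that Sirt6 and Cd38 did not reach, and no gene list difference was simulated. These shares therefore do not carry over to Sirt6 and Cd38, nor to genes that vary more between libraries, such as Sirt5 and Cd38.

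**Figure D1:**
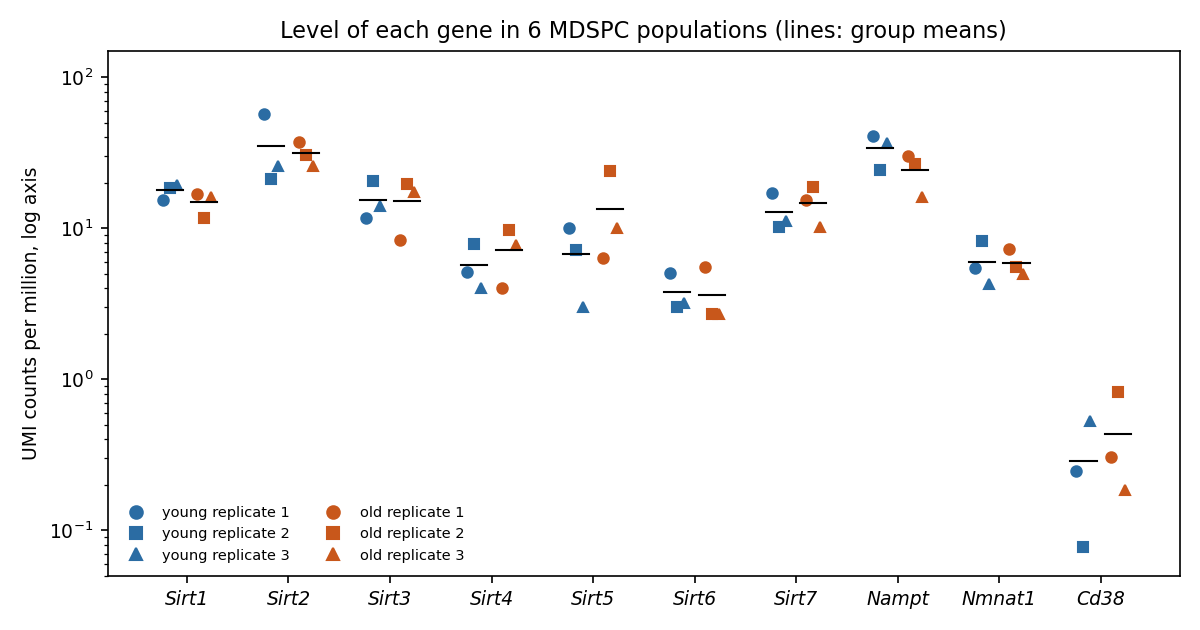
Level of each member in each library as TMM-scaled CPM (log axis), with young and old populations in separate colours and a short line at each group mean (n = 3). Points of both groups are interleaved for all 10 genes, old replicate 2 stands apart for Sirt5 at 24.0, and Cd38 lies below 1 in every library.

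To describe the pattern over libraries, the genes with the highest Pearson correlation of log2 CPM over the 6 libraries were taken among 4053 well-expressed genes. For Sirt1 these were Tardbp (r = 0.990) and Srsf11 (r = 0.983), for Sirt2 Fuca1 and Tsta3 (r = 0.985 each) and for Nampt Ppfia1 (r = 0.993) and Coro1c (r = 0.988). With 6 points and this many genes searched, such values describe the libraries only, and the points share library and depth.

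The members' high libraries were set beside the level of their whole chromosomes. For each library the median log2 shift of a chromosome's well-expressed genes against the mean of the other 5 libraries was taken, centred on the library's own median. All shifts, also those of the members, were taken on log2 of CPM plus 1. The added 1 shrinks the shifts of genes at low CPM. It does so most for Cd38, below 1 CPM in every library, whose shift cannot be set against that of its chromosome. Over 114 pairs of library and chromosome the median size of this shift was 0.0583, and 5 pairs were over 0.2. The largest, chromosome 6 in young replicate 3 (0.47, 201 genes), holds no member. In old replicate 2 chromosome 13 was shifted by 0.41 (174 genes) and Sirt5 by 1.72. In the same library chromosome 11 was shifted by 0.43 (345 genes) and Sirt7 by 0.60, and chromosome 5 by 0.33 (263 genes), Sirt4 by 0.76 and Cd38 by 0.58. In young replicate 2 chromosome 4 was shifted by 0.27 (275 genes) and Nmnat1 by 0.51. Each of these 5 members, which are those on the chromosomes with a shift over 0.2, had its highest library there, and the part of the chromosome-wide shift in the members' levels was not tested. The other 5 members were highest in libraries where their chromosome was shifted by at most 0.14. Sirt2, whose highest library was young replicate 1, had an own shift of 0.95 there beside 0.14 for chromosome 7, and Nampt, also highest there, 0.57 beside 0.01 for chromosome 12. Sirt6 had 0.75 in old replicate 1 beside 0.11 for chromosome 10. Sirt3, highest in young replicate 2 with 0.55, and Sirt1, highest in young replicate 3 with 0.30, stood beside chromosome shifts of -0.03 and -0.04.

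**Figure D2:**
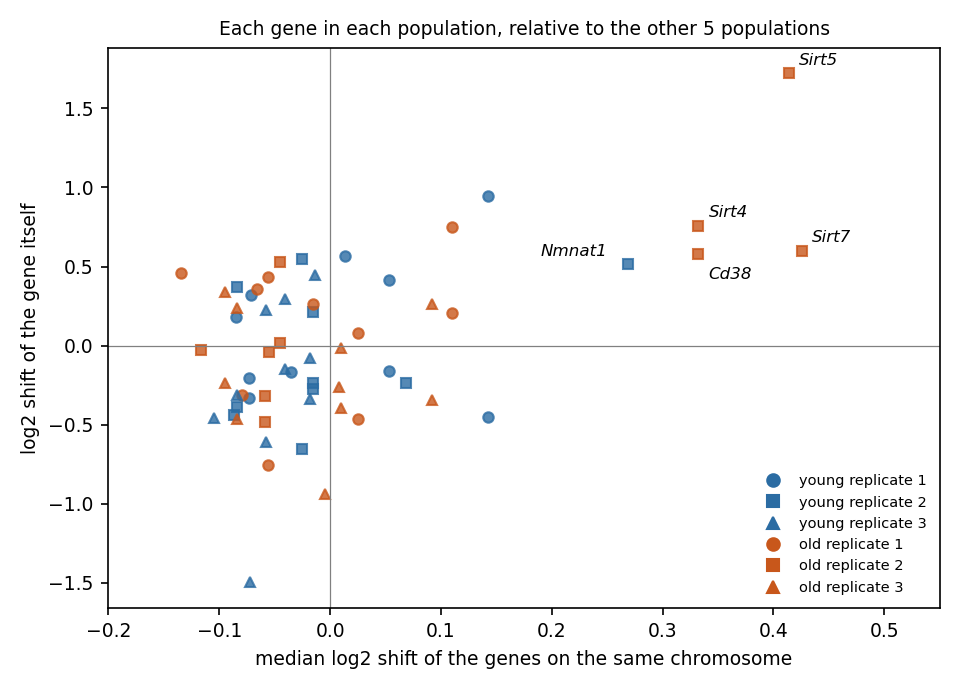
Log2 shift of each member in each library against the median log2 shift of the well-expressed genes on its chromosome in the same library, both relative to the other 5 populations. The points to the right of 0.2 belong to Sirt4, Sirt5, Sirt7 and Cd38 in old replicate 2 and to Nmnat1 in young replicate 2, and Sirt5 reaches 1.72.

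The share of cells with at least 1 UMI of a gene was compared after each cell had been thinned at random to 5000 UMIs, which kept 60305 cells and left out 1368 shallower ones. A UMI of Sirt2 was found in 21.2%, 10.1% and 13.5% of cells in young and 18.5%, 15% and 11.7% in old replicates 1 to 3. Nampt was found in 16.4%, 10.5% and 17.8% of young and 15.4%, 12.8% and 7.12% of old cells, and Sirt1 in 6.55%, 8.52% and 10.2% of young and 8.67%, 5.65% and 7.35% of old cells. Sirt5 was found in 4.28%, 3.54% and 1.68% of young and 3.60%, 11.9% and 4.96% of old cells. As in CPM, old replicate 2 stood out for Sirt5, old replicate 3 was lowest for Nampt, and the groups overlapped for all 10 genes. Mean shares were slightly higher in old populations for Sirt2 (by 0.157 percentage points), Sirt3 (0.237), Sirt6 (0.0689) and Nmnat1 (0.206), whose fold changes in CPM were slightly below 0.

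The group difference was closest to its smallest possible p for Sirt5, at 3.17% ± 1.34 in young and 6.82% ± 4.45 in old populations (SD, n = 3 each, two-sided exact permutation p = 0.2), where 3 against 3 populations cannot give less than 0.1. Nampt had mean shares of 14.9% ± 3.89 in young and 11.8% ± 4.22 in old populations (exact permutation p = 0.4). Of the 10 exact permutation tests none gave a p under 0.2. Without thinning, the mean shares were 9.78% and 20.3% for Sirt5, 39.5% and 32.3% for Nampt, 38.7% and 39.4% for Sirt2 and 24.5% and 20.9% for Sirt1 in young and old populations. No cell class that should lack these genes was set aside, so the share that free RNA in droplets gives was not measured.

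At the same depth of 5000 UMIs, any sirtuin was found in 39.9%, 35.2% and 36.2% of young and 40.5%, 46.4% and 35.1% of old cells in replicates 1 to 3. UMIs of at least 2 different sirtuins were found in 6.02% to 7.48% of young and 6.10% to 10.7% of old cells, with old replicate 2 highest. At this depth most cells therefore show no sirtuin UMI, which does not show absence of expression.

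A second comparison asked whether the genes differed between cycling and non-cycling cells of the same population. Cells scored as S or G2/M from 43 S and 54 G2/M genes were called cycling. They made up 49.1%, 58.6% and 86.7% of cells in young and 80.5%, 34.3% and 64.1% in old replicates 1 to 3. The classes are ranges of a score and not cell types, and 8.32% to 14.0% of cells lay within 0.05 of the limit. Per cell thinned to 5000 UMIs, the cell cycle genes that define the classes had medians of 43 to 55 UMIs in cycling and 8 to 13 in non-cycling cells. Myogenic markers had medians of 0 to 12 in cycling and 1 to 19 in non-cycling cells, fibro-adipogenic markers 1 to 2 in both, and endothelial and immune markers 0 in both. Cycling cells also held more UMIs, with medians of 14083 to 21189 against 11506.5 to 19354 in non-cycling cells.

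Sirt1 and Nampt took a larger share of UMIs in cycling cells, and 5 of the other 6 sirtuins and Nmnat1 a smaller one. With the population as a block, edgeR called 8 of the 10 members at an adjusted p under 0.05, against 52.9% of the 13360 genes tested. The 2 members called higher compare with 23.2% of genes called higher, and the 6 called lower with 29.8% called lower. The members' median log2 fold change was -0.25 and that of all genes -0.05.

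Sirt1 had 14.4, 16.4 and 17.7 CPM in non-cycling and 16.0, 20.3 and 19.8 CPM in cycling cells of young replicates 1 to 3. In old replicates 1 to 3 it had 15.6, 11.1 and 13.5 CPM in non-cycling and 17.5, 12.4 and 17.6 CPM in cycling cells. By CPM Sirt1 was thus higher in cycling cells of 6 of 6 populations, though the differences within a population are smaller than those between populations (log2 fold change 0.22, SE 0.05, edgeR adjusted p = 0.00605).

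Nampt had 40.6, 18.9 and 30.2 CPM in non-cycling and 40.5, 28.3 and 37.6 CPM in cycling cells of young replicates 1 to 3. In old replicates 1 to 3 it had 29.3, 24.4 and 11.6 CPM in non-cycling and 31.2, 29.5 and 18.2 CPM in cycling cells. By CPM Nampt was higher in cycling cells of 5 of 6 populations and level in young replicate 1 (log2 fold change 0.32, SE 0.09, edgeR adjusted p = 0.0137). Old replicate 3 and young replicate 2, where the gap was widest, are 2 of the 3 libraries with the most myogenic marker RNA. Among Myog-negative cells alone, those without a Myog UMI, Nampt was called with a log2 fold change of 0.25. This was the lowest value over the alternative fits in CPM, all of which called Nampt (edgeR adjusted p at most 0.0323). Myog-negative cells had medians of 0 (old replicate 1) to 10 (old replicate 3) myogenic marker UMIs per thinned cell. They are therefore not free of myogenic RNA, and the part of differentiation in the Nampt difference was not tested.

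Sirt2 showed the firmest difference in the other direction. It had 63.8, 25.5 and 31.4 CPM in non-cycling and 50.1, 19.6 and 25.2 CPM in cycling cells of young replicates 1 to 3. In old replicates 1 to 3 it had 44.8, 32.9 and 31.3 CPM in non-cycling and 36.6, 26.7 and 23.7 CPM in cycling cells. By CPM Sirt2 was lower in cycling cells of 6 of 6 populations by a similar ratio in each (log2 fold change -0.34, SE 0.04, edgeR adjusted p = 8.9e-05).

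Of the mitochondrial sirtuins, Sirt4 and Sirt5 were lower by CPM in cycling cells of 6 of 6 populations. Sirt4 had 6.01, 9.07 and 4.57 CPM in non-cycling and 4.29, 7.46 and 3.98 CPM in cycling cells of young replicates 1 to 3. In old replicates 1 to 3 it had 5.25, 11.1 and 9.20 CPM against 3.90, 7.17 and 7.22 CPM (log2 fold change -0.40, SE 0.07, edgeR adjusted p = 0.00155). The gap for Sirt4 was widest in old replicate 2, the library with its highest level. Sirt5 fell by 0.33 on the log2 scale (SE 0.06, edgeR adjusted p = 0.00161), from 26.3 to 19.7 CPM in old replicate 2 and from 3.30 to 3.02 CPM in young replicate 3, its highest and lowest libraries. Sirt3 had a fitted difference of -0.13 (SE 0.06) and was not called (edgeR adjusted p = 0.107), except without old replicate 3 (adjusted p = 0.0336, range over the fits 0.0336 to 0.275).

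By CPM Sirt7, Sirt6 and Nmnat1 were lower in cycling cells of 6 of 6 populations, by less. Sirt7 had a log2 fold change of -0.25 (SE 0.07, edgeR adjusted p = 0.0134), with the widest gaps in young replicate 1, from 19.7 to 14.4 CPM, and young replicate 3, from 14.8 to 10.7 CPM. Sirt6 had -0.25 (SE 0.08, edgeR adjusted p = 0.0286) and Nmnat1 -0.22 (SE 0.07, edgeR adjusted p = 0.019). The calls of these 3 genes depended on single libraries and settings. Sirt6 missed the threshold in 8 of 12 alternative fits, among them leaving out young replicate 1 or any 1 of the 3 old replicates, with adjusted p from 0.0123 to 0.222 over these fits. Sirt7 missed it without young replicate 1 (adjusted p = 0.0596) and Nmnat1 without young replicate 2 (adjusted p = 0.0709), with highest values over the fits of 0.157 for Sirt7 and 0.1 for Nmnat1. Cd38 had 5 to 102 UMIs per library in non-cycling and 7 to 85 in cycling cells and was not called (log2 fold change -0.44, SE 0.28, edgeR adjusted p = 0.212), except without old replicate 3 (adjusted p = 0.0473) and among Myog-negative cells only (log2 fold change -0.64, adjusted p = 0.0359, highest over the fits 0.553).

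The share of cells with a UMI, in cells thinned to 5000 UMIs, was compared by direction only and not tested. It was lower in cycling cells of 6 of 6 populations for Sirt2, Sirt4, Sirt5 and Nmnat1 and higher in 6 of 6 for Nampt. Sirt1 was found in more cycling than non-cycling cells in 5 of 6 populations, but in young replicate 3 in 10.2% of cycling and 10.5% of non-cycling cells. Sirt7 was found in fewer cycling cells in 5 of 6 populations, with 5.11% against 4.93% in old replicate 3. Sirt6 was found in fewer in only 4 of 6, with 1.48% of cycling against 1.38% of non-cycling cells in young replicate 2 and 2.98% against 2.80% in old replicate 1.

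**Figure D3:**
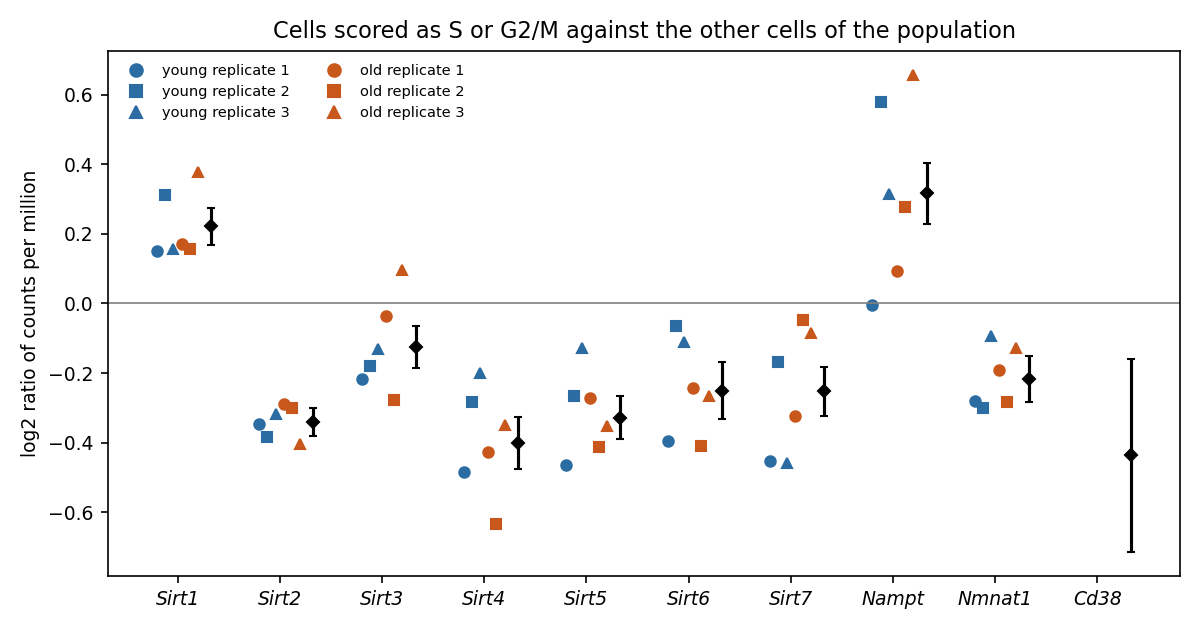
Log2 ratio of CPM in cycling over non-cycling cells for each member, with 1 coloured point per population (6) and a black diamond for the edgeR log2 fold change with its SE. Sirt1 lies above 0 in all 6 populations and Nampt in 5, while Sirt2, Sirt4, Sirt5, Sirt6, Sirt7 and Nmnat1 lie below 0 in all 6; Cd38 is shown by its fitted value only.

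CPM compare shares of the UMIs, and cycling cells hold more UMIs, so UMIs per cell were compared as well, an alternative added after seeing the data. All genes together had a log2 ratio of 0.29 ± 0.11 (SD, n = 6 populations) of cycling over non-cycling cells, higher in 6 of 6. Nampt had 0.61 ± 0.32 and Sirt1 0.51 ± 0.15 (SD, n = 6 each), each higher in 6 of 6 (paired two-sided exact permutation p = 0.0313, the smallest that 6 pairs allow, and 0.156 after adjustment over the 10 such tests). The test is against no difference and not against the ratio of all genes together, which gave the same unadjusted p. Sirt2 had -0.05, Sirt4 -0.11 and Sirt5 -0.03, and Sirt3 0.16, Nmnat1 0.08, Sirt6 0.04 and Sirt7 0.03. The 6 members called lower in CPM thus had per-cell log2 ratios between -0.11 and 0.08, below that of all UMIs. Per cell, Sirt2 was lower in cycling cells of 5 of 6 populations, Sirt4, Sirt5 and Sirt7 in 3 of 6 each, and Sirt6 and Nmnat1 in 2 of 6 each.

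**Figure D4:**
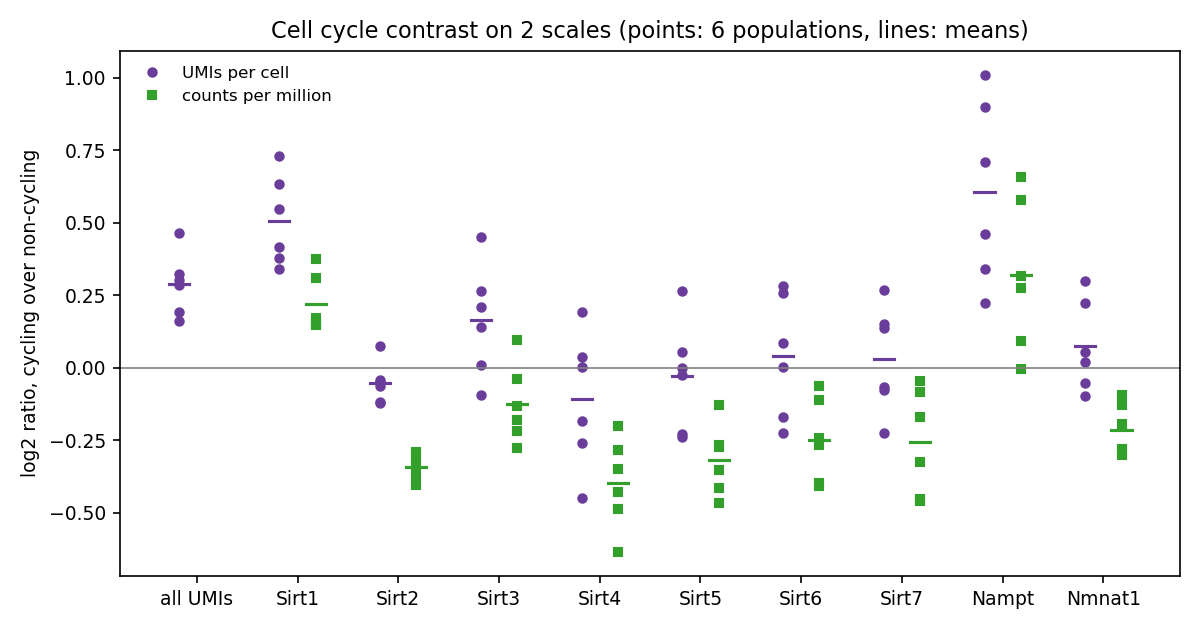
Log2 ratio of cycling over non-cycling cells on both scales, UMIs per cell and CPM, for all UMIs and for 9 members, as means over 6 populations. On the per-cell scale Sirt1 (0.51) and Nampt (0.61) lie above all UMIs (0.29), and the members called lower in CPM lie near 0.

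Whether the difference between cycling and non-cycling cells itself changed with age was tested with an interaction term. It was called for 0 of 10 members and 0 of all genes (0.0%) by edgeR, with all adjusted p-values of members at 0.9996, and 2.15% of genes had an unadjusted p under 0.05 against 0 members.

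The cycling class joins S and G2/M cells, and these were compared with each other within populations, a comparison added after seeing the data. G2/M over S, edgeR called 2 of 10 members, both lower, against 40.3% of 12864 genes called and 21.1% called lower. Nampt had 43.7, 27.9 and 40.2 CPM in S and 39.5, 27.0 and 35.8 CPM in G2/M cells of young replicates 1 to 3. In old replicates 1 to 3 it had 33.3, 31.0 and 21.2 CPM in S and 30.7, 28.9 and 16.6 CPM in G2/M cells. By CPM Nampt was lower in G2/M cells of 6 of 6 populations (log2 fold change -0.15, SE 0.04, edgeR adjusted p = 0.00421). Sirt7 was lower by CPM in G2/M cells of 6 of 6 populations as well, from 10.8 to 20.5 CPM in S and 9.16 to 17.2 CPM in G2/M cells (log2 fold change -0.22, SE 0.04, edgeR adjusted p = 0.00097). G2/M cells held more UMIs in 6 of 6 populations, with medians of 15073 to 21618.5 against 13183 to 20880 in S cells. UMIs per cell were not compared for S and G2/M cells, so lower CPM does not show fewer UMIs per G2/M cell. At 5000 UMIs the share of cells with a UMI was lower in G2/M than in S cells of 6 of 6 populations for Nampt and of 5 of 6 for Sirt7, the exception being young replicate 1. Sirt1 had -0.07 and Sirt2 -0.08 and neither was called, except Sirt2 without old replicate 3 (edgeR adjusted p = 0.0397, highest over the fits 0.332).

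A further comparison set cells with at least 2 UMIs of Myog, the transcription factor of early muscle differentiation, against cells with none, within populations. Such Myog-positive cells numbered 191, 1533 and 251 in young and 35, 833 and 4350 in old replicates 1 to 3. Old replicate 1 was left out for having fewer than 50. The 2 classes differ in cycling: 6.81%, 29.7% and 65.3% of Myog-positive cells were cycling in young replicates 1 to 3 and 5.64% and 50% in old replicates 2 and 3, against 50.3%, 64.1%, 87.2%, 38.6% and 72.8% of Myog-negative cells. Median UMIs of the myogenic list, which includes Myog, were 11 to 28 per thinned Myog-positive cell and 1 to 10 per Myog-negative cell of the 5 populations. Medians of fibro-adipogenic markers were 0 to 2 in Myog-positive and 1 to 2 in Myog-negative cells.

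Nampt, Sirt7 and Cd38 were lower and Sirt4 was higher in Myog-positive cells. edgeR called 4 of 10 members, 1 higher and 3 lower, against 38.0% of 13332 genes called, 15% higher and 23.0% lower. The members' median log2 fold change was 0.01 and that of all genes -0.09.

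Nampt had 39.9, 25.2 and 37.0 CPM in Myog-negative and 19.7, 16.4 and 21.3 CPM in Myog-positive cells of young replicates 1 to 3. In old replicates 2 and 3 it had 26.0 and 17.4 CPM in Myog-negative and 18.1 and 13.1 CPM in Myog-positive cells. Nampt was lower in 5 of 5 populations (log2 fold change -0.65, SE 0.10, edgeR adjusted p = 0.00347). Among non-cycling cells alone its log2 fold change was -0.66 (edgeR adjusted p = 0.00828). Fits among non-cycling cells, here and for the genes below, were added after seeing the data, and the part of cycling in the differences was not tested.

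Sirt7 had 16.6, 10.4 and 11.1 CPM in Myog-negative and 7.89, 8.23 and 9.86 CPM in Myog-positive cells of young replicates 1 to 3, and 18.6 and 11.4 against 11.3 and 7.72 CPM in old replicates 2 and 3. It was lower in 5 of 5 populations (log2 fold change -0.54, SE 0.13, edgeR adjusted p = 0.0145), and in non-cycling cells alone the value was -0.72 (edgeR adjusted p = 0.00942). Sirt7 missed the threshold without old replicate 2 (adjusted p = 0.0905) or old replicate 3 (adjusted p = 0.0515), where 2891 and 3286 genes were called in place of 5066 (3342 without young replicate 2).

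Sirt4 had 4.85, 7.40 and 4.01 CPM in Myog-negative and 10.4, 9.22 and 5.05 CPM in Myog-positive cells of young replicates 1 to 3, and 8.74 and 7.02 against 12.8 and 8.75 CPM in old replicates 2 and 3. Sirt4 was higher in 5 of 5 populations (log2 fold change 0.48, SE 0.14, edgeR adjusted p = 0.0267). The call was lost in 5 of 11 alternative fits, among them leaving out young replicate 2, old replicate 2 or old replicate 3, and among non-cycling cells alone the value was 0.36 (edgeR adjusted p = 0.0914, range over the fits 0.00504 to 0.0914).

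Cd38 was counted in 27, 13, 102, 143 and 26 UMIs in the Myog-negative and 0, 1, 1, 4 and 3 UMIs in the Myog-positive cells of young replicates 1 to 3 and old replicates 2 and 3. The edgeR log2 fold change of -1.92 (SE 0.41, adjusted p = 0.00962) rests on these few UMIs and depends on the small count that the model adds. The call was lost without old replicate 2 (adjusted p = 0.0577) or old replicate 3 (adjusted p = 0.0621). It was also lost when cells with at least 1 Myog UMI were taken as positive, where the value was -0.96 (adjusted p = 0.0705). Sirt1 (-0.04), Sirt2 (0.18), Sirt3 (0.28), Sirt5 (0.26), Sirt6 (-0.23) and Nmnat1 (0.07) were not called. Without young replicate 1 Sirt2 was called (edgeR adjusted p = 0.0282) and without young replicate 3 Sirt5 (edgeR adjusted p = 0.0345), with highest values over the fits of 0.632 and 0.341. Per cell, Nampt had a log2 ratio of -0.85 ± 0.35 and Sirt7 of -0.75 ± 0.45 (SD, n = 5), beside -0.13 for all UMIs. Each was lower in 5 of 5 populations (exact permutation p = 0.0625, the smallest that 5 pairs allow, and 0.188 after adjustment). This test too is against no difference and not against the ratio of all UMIs.

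**Figure D5:**
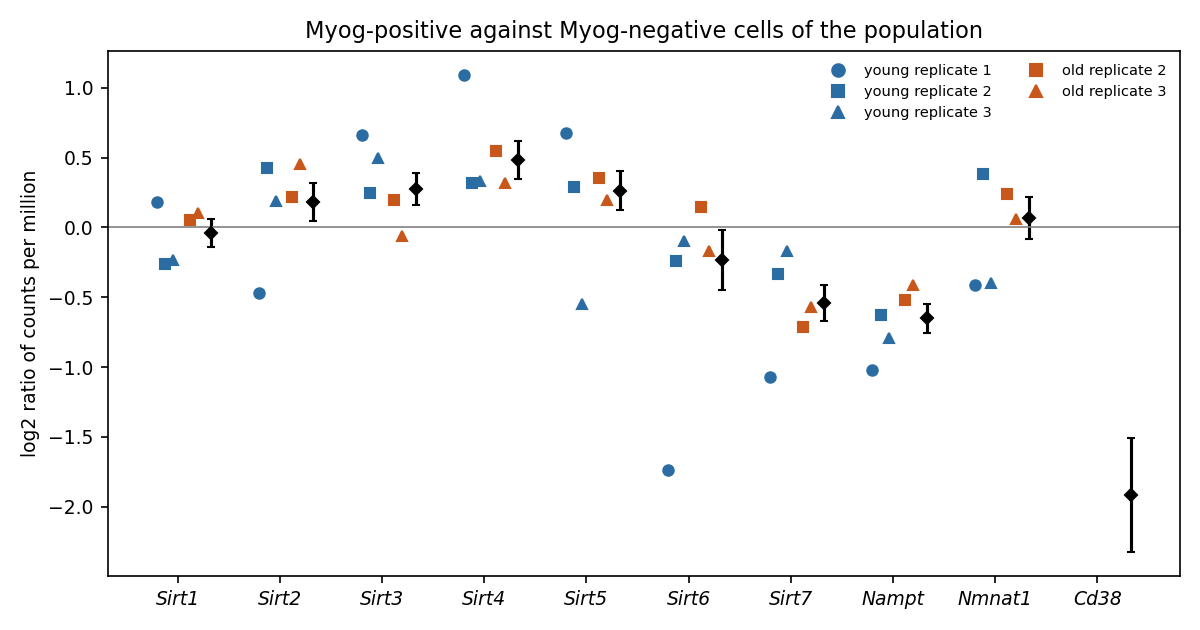
Log2 ratio of CPM in Myog-positive over Myog-negative cells for each member, with 1 coloured point for each of 5 populations (old replicate 1 had too few Myog-positive cells) and a black diamond for the edgeR log2 fold change with its SE. Nampt and Sirt7 lie below 0 and Sirt4 above 0 in all 5 populations, and Cd38 is shown by its fitted value only.

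The share of cells with a UMI at 5000 UMIs was lower in Myog-positive cells of 5 of 5 populations for Nampt and higher in 5 of 5 for Sirt4. For Sirt7 it was lower in 4 of 5, with 5.98% of Myog-positive against 5.94% of Myog-negative cells in young replicate 3. These shares were not tested.

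The interaction of this difference with age was called for 0 of 10 members and 0 genes (0.0%) by edgeR, with member adjusted p-values of 0.9998. An unadjusted p under 0.05 was found for 3.47% of genes and 0 members.

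The other genes of the pathway were taken from 8 lists named for their roles, and in old against young populations none of their genes was called by edgeR. Groups without overlap were found for 1 of 2 NAD kinases, 1 of 11 zinc-dependent deacetylases and 1 of 10 salvage genes and for no gene of the other lists, beside 6.05% of all genes, a share near that of the listed genes. These were Nadk2, the mitochondrial NAD kinase (log2 fold change -0.54, SE 0.24, unadjusted p = 0.071), Hdac1, a zinc-dependent deacetylase (-0.52, SE 0.21, unadjusted p = 0.047), and Nmrk1, a nicotinamide riboside kinase (0.29, SE 0.30). Nadk2 had 11.9, 13.8 and 19.4 CPM in young and 8.75, 11.8 and 10.2 CPM in old replicates 1 to 3. Hdac1 had 56.9, 70.7 and 82.6 CPM in young and 49.3, 47.7 and 48.3 CPM in old replicates 1 to 3. All adjusted p-values of these genes were 0.9999.

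In cycling cells, 2 of the 10 salvage genes were called higher (Nampt and Pnp) and 4 lower, where 23.2% of all genes were called higher and 29.8% lower. The counts of called genes in these small lists are read against those shares and show nothing particular to a list. Values here and in the next paragraph are by CPM. UMIs per cell, where all genes together had a log2 ratio of 0.29, were not compared for listed genes other than members. A small negative value, such as that of Tnks2, therefore does not show fewer UMIs per cycling cell. Pnp, which frees nicotinamide from its riboside, had a log2 fold change of 0.60 (SE 0.11, edgeR adjusted p = 0.00212). Nmrk2, the muscle form of nicotinamide riboside kinase, had -3.32 (SE 0.21) and Nmnat3, the mitochondrial partner of Nmnat1, -0.63 (SE 0.07). Nmrk2, Hdac11, Acss2, Foxo1, Sod2 and Parp3, lower in cycling cells, were called higher in Myog-positive cells, which were less often cycling. Pnp, Trp53, Parp1 and Hdac7 were called higher in cycling and lower in Myog-positive cells. For these listed genes the difference by cycling is not separated here from the difference by Myog. Of the members, Sirt4 was likewise called lower in cycling and higher in Myog-positive cells, and Nampt the reverse. Nmrk1, also counted as lower (-0.22), missed the threshold in 8 of 12 alternative fits (edgeR adjusted p 0.0328 to 0.169), among them leaving out any library but young replicate 1. Among the 7 tested NAD consumers other than sirtuins, 2 were higher and 2 lower. The DNA damage sensors Parp1 (0.65, SE 0.04) and Parp2 (0.93, SE 0.07) were higher and Parp3 (-0.60, SE 0.07) and Tnks2 (-0.20, SE 0.04) lower. Both nicotinamide clearance genes were lower, Aox1 by a log2 fold change of -0.73 and Nnmt of -0.54.

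Of the 8 tested substrates and partners of sirtuins, 2 were called higher and 4 lower in cycling cells. Trp53 (0.51) and the Sirt3 substrate Idh2 (0.33) were higher, and Acss2 (-0.89), Ppargc1a (-0.55), Foxo1 (-0.53) and Sod2 (-0.29) lower. The zinc-dependent deacetylases, which do not use NAD, had 3 of 11 genes higher (Hdac7, 0.36; Hdac3, 0.25; Hdac1, 0.22) and 3 lower (Hdac11, -1.23; Hdac8, -0.35; Hdac5, -0.20). Hdac5 missed the threshold in 3 of 12 alternative fits, among them without young replicate 1 (edgeR adjusted p = 0.0606) or old replicate 1 (adjusted p = 0.0583), with a highest value of 0.153. Of the 2 sirtuin regulators, Rps19bp1, an activator of Sirt1, was higher (0.24) and Ccar2, an inhibitor of Sirt1, had a fitted value of 0.02. Median log2 fold changes were -0.11 for salvage, -0.20 for consumers, -0.17 for substrates and 0.11 for the zinc-dependent deacetylases. None of the 2 tested genes of the de novo route (Afmid, 0.31; Ido2, 0.53) or the 2 NAD kinases (Nadk, 0.04; Nadk2, 0.06) was called.

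In Myog-positive cells, 2 of 10 salvage genes were called higher and 3 lower, where 15% of all genes were called higher and 23.0% lower. Nmrk2 had the widest difference of any listed gene, from 0.413, 2.00 and 0.0308 CPM in Myog-negative to 123, 69.7 and 11.0 CPM in Myog-positive cells of young replicates 1 to 3, and from 37.5 and 0.871 to 347 and 33.5 CPM in old replicates 2 and 3 (log2 fold change 5.60, SE 0.91, edgeR adjusted p = 0.00834). Slc25a51, the mitochondrial NAD carrier, was higher (0.38), and Pnp (-1.53) and Nmnat2 (-1.43) were lower along with Nampt. Nampt and Nmrk2 were called in opposite directions in cycling and in Myog-positive cells, comparisons that are not separated here for Nmrk2. Nmrk1, the other listed nicotinamide riboside kinase, was not called between Myog-positive and Myog-negative cells. Among the substrates Acss2 (1.24), Foxo1 (0.97) and Sod2 (0.59) were higher and Trp53 (-0.67) and Glud1 (-0.55) lower. Hdac11 (2.19) was higher and Hdac7 (-1.23) lower. Parp3 (0.40) also passed as higher and Parp1 (-0.28), Nadk (-0.50), Aox1 (-0.59) and Foxo3 (-0.36) as lower, but each of these calls was lost without at least 1 library. Over all alternative fits their adjusted p reached 0.0664 for Parp3, 0.925 for Parp1, 0.0508 for Nadk, 0.354 for Aox1 and 0.228 for Foxo3. Of the 2 tested genes of the de novo route, Ido2, an enzyme of tryptophan breakdown, was called lower (-2.44, SE 0.67, edgeR adjusted p = 0.0237) on few UMIs, with 64, 4, 133, 40 and 23 in Myog-negative and 0, 0, 2, 0 and 2 in Myog-positive cells of young replicates 1 to 3 and old replicates 2 and 3. That call was lost without old replicate 2 or old replicate 3 (adjusted p up to 0.13). Over all cells Nmrk2 had 3.11, 11.7 and 0.274 CPM in young and 0.513, 74.8 and 12.8 CPM in old replicates 1 to 3.

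Between G2/M and S cells, 5 of the 7 NAD consumers were called by CPM, beside 40.3% of all genes. Parp2 (0.26), Tnks2 (0.17) and Tnks (0.17) were higher in G2/M cells and Parp1 (-0.12) and Parp3 (-0.12) lower. In the other lists Rps19bp1 (0.11) and Foxo1 (0.14) were higher, and Hdac9 (-0.58), Sod2 (-0.15), Nadk (-0.07) and Idh2 (-0.06) were lower along with Nampt. Of 8 alternative fits the call was lost in 6 for Foxo1, 6 for Nadk, 5 for Idh2, 5 for Parp3 and 1 for Parp1, with adjusted p up to 0.143, 0.168, 0.0983, 0.132 and 0.0552.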

How the data were processed

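The deposited matrices hold raw UMI counts per gene and cell barcode, with no normalization, made by the authors with Cell Ranger 7.0.0 (young replicate 1 and old replicate 1, 21849 features) or 7.2.0 (the other 4, 32285 features), per the file headers. The submitters' processing notes name Cell Ranger 7.2.0, Seurat 5.134 and mm10. Doublets were not called and remain. Cells with at least 1000 UMIs, at least 500 genes and under 15% mitochondrial UMIs were kept, and the 21485 shared identifiers, which held 98.5% to 99.9% of the UMIs, were used.

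UMI counts were summed per library, or per library and cell class. Sums were fitted in R 4.3.3 with edgeR 4.0.16, using TMM factors, filterByExpr and the robust quasi-likelihood test. Old and young were compared with the gene list as a covariate, and cell classes with the library as a block. CPM are TMM-scaled. p-values were adjusted by Benjamini-Hochberg over all genes tested. SE are model-based. DESeq2 1.42.0 was an alternative. Shares of cells were compared with exact permutation tests (scipy 1.17.1) after thinning, and cycling was scored with scanpy 1.11.5. The tests were tested on simulated data. Replicate numbers, which the labels do not tie to a shared batch, were not used to pair libraries. The text names all 10 members, up to 6 called genes per pathway list (or up to 2 with the lowest unadjusted p), and 2 genes most like Sirt1, Sirt2 and Nampt in pattern. Members and lists were chosen with earlier results of these data known. Nnt, which has 2 identifiers with 1 symbol, was not used here.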

Additional observations from a re-analysis of the deposited data

How the results depend on the processing

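No alternative called a member between old and young, and Nampt kept its sign in all 16. The count of genes called there (1) was 263 with DESeq2, 0 with no gene list term, 0 on the longer gene list only and 0 (without young replicate 1) to 3 when single libraries were left out. With the replicate number as a block, 1 gene was called and the log2 fold change of Nmnat1 turned to 0.015. Deviations of same-numbered libraries had correlations of 0.396, 0.281 and -0.108, and young replicate 2 correlated best with old replicate 3 (0.330), so the numbers were not taken to pair the libraries. The replicate 1 libraries also share the shorter gene list and Cell Ranger 7.0.0. On the longer list only, Sirt2 turned to 0.27 and Sirt3 to 0.10. In the 2 libraries on the shorter list, 1 against 1 and with no test, Sirt1 turned to 0.14, Sirt4 to -0.35, Sirt5 to -0.66, Sirt6 to 0.12, Sirt7 to -0.15 and Nmnat1 to 0.40. Leaving out single libraries gave -0.21 to 0.27 for Sirt2, -0.29 to 0.10 for Sirt3, -0.067 to 0.56 for Sirt4, -0.11 to 0.44 for Sirt7, -0.25 to 0.33 for Nmnat1 and -0.28 to 1.59 for Cd38. For G2/M against S, Nmnat1 turned to -0.0069 with DESeq2, Cd38 to -0.093 on the longer list, and leave-one-out gave -0.021 to 0.020 for Sirt3 and -0.015 to 0.031 for Nmnat1. Per cell, the cycling ratio turned to 0.16 for Sirt3, 0.040 for Sirt6, 0.033 for Sirt7 and 0.075 for Nmnat1, and the Myog ratio to -0.016 for Sirt2 and -0.21 for Nmnat1. Leaving out single libraries in the Myog comparison gave 2891 to 4878 genes called, -0.080 to 0.029 for Sirt1 and -0.049 to 0.17 for Nmnat1. In that comparison the fit on the longer list only is the same as the fit without young replicate 1. Differences in shares of cells (old minus young, percentage points) turned on the shorter list to 2.12 for Sirt1, -2.63 for Sirt2, -0.0758 for Sirt3 and -0.671 for Sirt5, on the longer list to -0.257 for Sirt6 and -0.516 for Nmnat1, and at 3000 UMIs to -0.0623 for Sirt6 and -0.103 for Nmnat1. Leave-one-out gave -2.27 to 3.30 for Sirt2, -0.940 to 1.57 for Sirt3, -0.439 to 0.415 for Sirt6, -0.237 to 0.790 for Nmnat1 and -0.00927 to 0.175 for Cd38. Fewer libraries enter the fits on 1 list or without a library, and otherwise the cause was not tested. Depth limits Cd38 most, with 15 UMIs in its lowest library.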
